A study of Mus musculus with 2 samples.

Results

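Hypoxia targets outside glycolysis are described here in mouse embryonic stem cells (mESCs) of the Sv129 line that were cultured without or with folate. The set holds 10 genes chosen by name as known targets of the hypoxia-inducible factors (HIFs) that do not encode glycolytic enzymes or transporters of glucose and lactate: Bnip3, Vegfa, Adm, Ankrd37, Ndrg1, Ddit4, Ero1l, Higd1a, Car9 and Mxi1. All 10 were found among the 28839 genes of the expression table. The 10 genes and the lists set beside them were chosen with earlier results of these data known. Their counts beside the shares of all genes are therefore descriptive only. RNA-seq had been run on 2 libraries. The FA0 library came from mESCs in folate-free medium (0 mg/L folate) and the FA4 library from mESCs in medium with normal folate (4 mg/L). Cells of the same stock had been divided between the conditions at random, and both cultures received serum and leukemia inhibitory factor in the same base medium. Neither culture was described as kept at low oxygen, so the response of these genes to hypoxia in this line was not measured here.

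With 1 library per condition there was no replicate and no test across samples, and no p-value is given. Levels are in FPKM (fragments per kilobase of exon, scaled to the size of the library), as deposited. The change of a gene is the log2 ratio FA0 over FA4 after 1 had been added to each FPKM, a scale that understates the change of low genes, and the FPKM ratio is the FA0 level over the FA4 level with nothing added. Each ratio is given with an exact 95% interval (Clopper-Pearson) from the reads recovered for that gene, which covers counting error between these libraries and not the spread between cultures. The reads summed over genes were 18362331 in FA0 and 19529496 in FA4. These sums exceed the library totals fitted to recover the reads, 17704833 in FA0 and 18807180 in FA4. The sources used here do not say why. A gene was counted as expressed at an FPKM of 1 or more in either library, which held for 14345 genes, and over these the median change was 0.05. The 8 embryonic stem cell markers that were checked, Pou5f1, Sox2, Nanog, Klf4, Esrrb, Zfp42, Dppa4 and Tdgf1, lay between 107.6 and 480.3 FPKM in FA0 and between 118.2 and 824.3 FPKM in FA4, and all 8 were lower in FA0, with a median change of −0.26. All 8 averaged at least 100 FPKM over both libraries, a level at which 75.1% of 478 genes had a change below 0 and the median was −0.20. The part of this marker difference in the results was not tested. Of 6 feeder fibroblast markers 2 were expressed (Thy1 and Pdgfrb), the 6 summed to 6.77 FPKM in FA0 and 6.48 FPKM in FA4, and Col3a1 and Postn were at 0 in FA4. In bulk RNA, fewer cells of a type and less RNA per cell cannot be told apart.

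In cells with enough oxygen, prolyl hydroxylases of the Egln family mark the HIF alpha subunits, Hif1a and Epas1, for destruction through the von Hippel-Lindau protein (Vhl). When oxygen runs low the alpha subunits persist, pair with Arnt and bind short DNA elements with the core ACGTG or GCGTG near their targets. Apart from the glycolytic genes, these targets include genes for the removal of mitochondria, the growth of vessels, the buffering of pH, protein folding and the restraint of mTORC1 signalling.

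Promoter sequences of the genes with the greatest changes in either direction, and of Vegfa, which encodes the best known secreted product of the pathway, are shown so that the core letters of the HIF element can be read in them. They were taken from RefSeq (GRCm38.p6, the build of the expression table) and run 5′ to 3′ from 250 bases before to 50 bases after the annotated start. Capitals mark ACGTG and GCGTG on either strand, so that CACGT and CACGC are the same motifs read on the other strand, and neighbouring or overlapping matches run together.
Bnip3 (chr7:138909457-138909756, minus strand): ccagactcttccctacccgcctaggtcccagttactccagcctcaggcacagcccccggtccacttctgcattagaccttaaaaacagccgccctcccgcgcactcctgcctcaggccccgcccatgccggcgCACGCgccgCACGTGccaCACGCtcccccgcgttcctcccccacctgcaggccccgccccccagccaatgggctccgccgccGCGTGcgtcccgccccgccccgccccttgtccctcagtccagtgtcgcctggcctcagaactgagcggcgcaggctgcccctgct
Higd1a (chr9:121857747-121858046, minus strand): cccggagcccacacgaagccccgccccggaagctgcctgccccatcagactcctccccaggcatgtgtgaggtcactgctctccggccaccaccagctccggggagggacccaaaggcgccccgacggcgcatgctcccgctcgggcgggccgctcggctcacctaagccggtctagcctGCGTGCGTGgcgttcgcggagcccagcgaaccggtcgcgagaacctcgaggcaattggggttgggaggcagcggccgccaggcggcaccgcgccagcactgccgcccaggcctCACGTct
Ankrd37 (chr8:45999801-46000100, minus strand): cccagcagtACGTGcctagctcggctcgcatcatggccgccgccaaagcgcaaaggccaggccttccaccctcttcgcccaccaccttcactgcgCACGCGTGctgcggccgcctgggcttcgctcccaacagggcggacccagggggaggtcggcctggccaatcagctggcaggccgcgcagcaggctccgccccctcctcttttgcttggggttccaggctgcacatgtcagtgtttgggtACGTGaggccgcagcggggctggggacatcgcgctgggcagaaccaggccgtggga
Ddit4 (chr10:59951721-59952020, minus strand): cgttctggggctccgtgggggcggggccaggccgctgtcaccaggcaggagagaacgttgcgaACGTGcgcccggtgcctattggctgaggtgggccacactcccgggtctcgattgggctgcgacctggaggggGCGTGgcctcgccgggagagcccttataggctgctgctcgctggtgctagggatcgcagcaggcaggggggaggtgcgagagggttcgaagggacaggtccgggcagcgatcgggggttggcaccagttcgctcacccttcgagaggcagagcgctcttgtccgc
Vegfa (chr17:46032328-46032627, minus strand): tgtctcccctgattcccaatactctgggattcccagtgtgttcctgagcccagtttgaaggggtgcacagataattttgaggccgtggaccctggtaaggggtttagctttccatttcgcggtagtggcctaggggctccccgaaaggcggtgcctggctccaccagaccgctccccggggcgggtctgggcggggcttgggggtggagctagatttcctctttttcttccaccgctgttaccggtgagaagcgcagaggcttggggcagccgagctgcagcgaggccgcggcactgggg

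RefSeq promoters were matched for 9 of the 10 genes, Ndrg1 being the exception, and gave 12 promoters because Vegfa had 2 and Mxi1 had 3. ACGTG stood in 9 of the 12 (75%), against 19.6% of all 32851 RefSeq promoters of the same length and 25.5% of the 12561 promoters of expressed genes. GCGTG stood in 7 of the 12 (58.3%), against 32.4% of all promoters and 50.1% of those of expressed genes. The median GC content was 66% in the 12 promoters, 52.7% in all promoters and 60.7% in those of expressed genes. The Bnip3 promoter held ACGTG 2 times and GCGTG 3 times, and it was the only one of the 12 with CACGTG, a palindrome that contains ACGTG on both strands and that occurred in 7.15% of all promoters and 10.1% of those of expressed genes. Ddit4 and Higd1a, which lay on opposite sides of no change, each held both cores. The shown Vegfa promoter held neither, and the other Vegfa promoter, which is not shown, held both. That other promoter (chr17:46025114-46025413) lies inside the gene. It alone of the 12 had final bases found in no GENCODE transcript of its gene, and it is included in the counts above. A match is a run of letters and not a binding site, and its absence from this window says nothing of the factor.

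Of the 10 genes, Bnip3 alone had a change of at least 2-fold (1 on the log2 scale with 1 added to each FPKM), and it was lower in FA0. Higd1a and Ero1l were lower in FA0 by smaller amounts, Ddit4 was higher, and Vegfa, Ndrg1 and Mxi1 lay close to equal levels. Ankrd37, Car9 and Adm had too few reads for a direction. The 1 gene at least 2-fold lower stands beside 1.32% of all expressed genes, and the 0 genes at least 2-fold higher stand beside 2.99%. Of the 8 genes that reached an FPKM of 1 in either library 6 had a change below 0, beside 44.3% of all expressed genes, and Car9 below that limit made 7 of the 10. The interval of the FPKM ratio lay below 1 for 4 of the 8 (Bnip3, Higd1a, Ero1l and Vegfa), beside 25.8% of all expressed genes. It lay above 1 for Ddit4, beside 34.4%, and held 1 for the other 3 and for Adm and Car9. Whether an interval clears 1 depends on the reads of a gene. The share below 0 depended on level, at 36.9% of genes below a mean of 5 FPKM and 75.1% from 100 FPKM on. The median change of all 10 was −0.14, and that of the 8 was −0.19, of which Ankrd37 reached the limit in FA4 only.

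**Figure D1:**
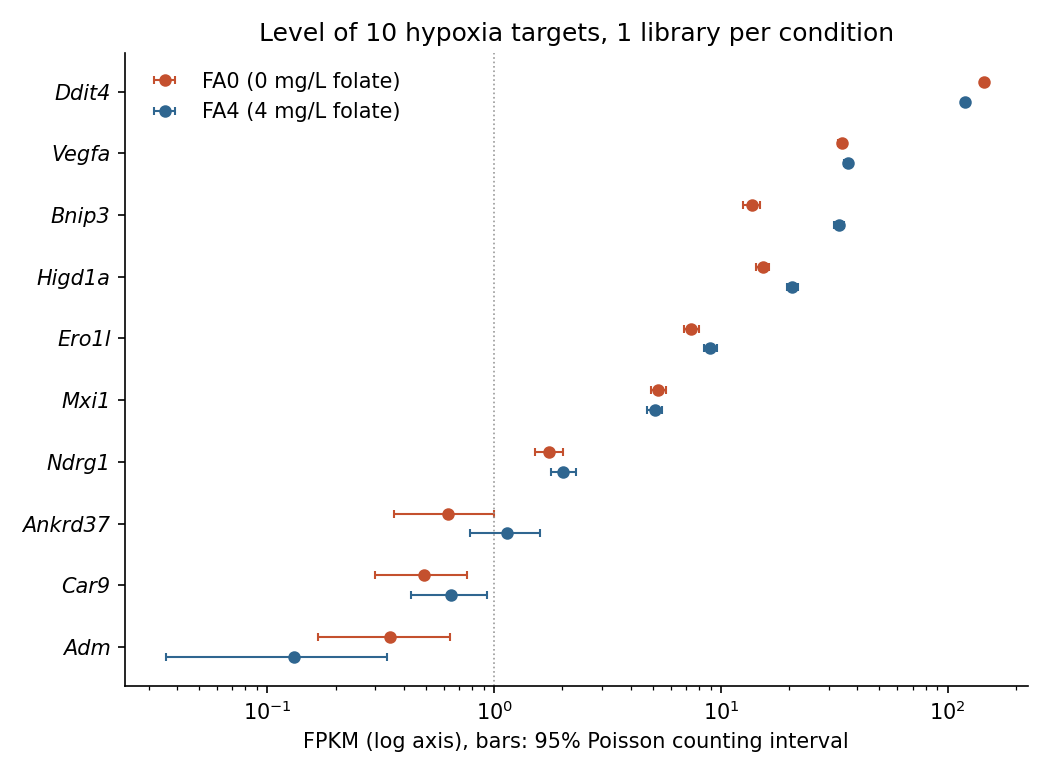
Expression level of each of the 10 hypoxia targets in FPKM on a log axis, with the FA0 and the FA4 library as separate points (1 library each) and bars for the exact 95% Poisson interval of the reads. The Bnip3 points are the farthest apart among the well-covered genes, at 13.7 FPKM in FA0 and 33.2 FPKM in FA4, while the bars of Adm, Ankrd37 and Car9 are wide.

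Bnip3 encodes a BH3-only protein of the outer mitochondrial membrane that recruits autophagosomes to mitochondria (mitophagy). The gene (ENSMUSG00000078566) lies on the minus strand at chr7:138890836-138909519 (mm10). It was at 13.7 FPKM from 549 reads in FA0, against 33.2 FPKM from 1416 reads in FA4. The FA0 level was 2.43-fold lower (95% counting interval 2.20 to 2.68), a change of −1.22, which placed it at position 110 from the lowest among the 14345 expressed genes. Counting intervals of the levels ran from 12.6 to 14.9 FPKM in FA0 and from 31.5 to 35.0 FPKM in FA4 and did not overlap. Among the 2663 genes with a mean FPKM from 20 to 100, the range in which Bnip3 lay, 14 (0.526%) were at least 2-fold lower and the median change was −0.06. The nearest expressed coding gene, Ppp2r2d, which encodes a regulatory subunit of protein phosphatase 2A and ends 7778 bases away, had 15.8 FPKM in FA0 and 17.6 FPKM in FA4, a change of −0.15. Exons of an antisense transcript, Gm45507, overlap Bnip3 by 504 bases and were not analysed here, and the sources used here do not say whether reads had been assigned by strand.

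Other proteins that tie mitochondria to autophagy were close to equal or moderately lower in FA0. Bnip3l, the nearest relative of Bnip3 and also a HIF target, was at 9.59 FPKM in FA0 and 13.5 FPKM in FA4, a change of −0.46. Within a library, Bnip3 was at 1.43 times the level of Bnip3l in FA0 and at 2.46 times in FA4, so the pair stood closer together without folate. Fkbp8, a receptor at the outer membrane, had a change of −0.35 (44.1 FPKM in FA0 and 56.4 FPKM in FA4), and Phb2, a receptor of the inner membrane, one of −0.16. Fundc1, a receptor linked to hypoxia, Pink1, the kinase that starts Parkin-dependent mitophagy, and Bcl2l13 lay at −0.08, −0.07 and −0.01. All 6 expressed genes of this list other than Bnip3 were below 0, beside 44.3% of all expressed genes, with a median of −0.12. The intervals of 3 of them lay below 1, beside 25.8% of all expressed genes. With FA0 rescaled so that FPKM summed to the same total in both libraries, 4 of the 6 were below 0 and the median was −0.05, where the median of all expressed genes was 0.12.

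Vegfa, the main growth factor of blood vessels, and Adm, the vessel-relaxing peptide adrenomedullin, are the secreted products of the set. Vegfa (ENSMUSG00000023951, chr17:46016993-46032369, minus strand) was at 34.0 FPKM from 2582 reads in FA0, against 36.3 FPKM from 2924 reads in FA4. The ratio was 0.938 (95% counting interval 0.889 to 0.989), a change of −0.09. This is a small difference, its 2 Poisson intervals (32.7 to 35.4 FPKM in FA0, 35.0 to 37.6 FPKM in FA4) overlapped, and with FPKM summing to the same total in both libraries the ratio was 0.992 with an interval of 0.941 to 1.05 that held 1. Adm (ENSMUSG00000030790, chr7:110627661-110629820, plus strand) had 0.349 FPKM from 10 reads in FA0, against 0.131 FPKM from 4 reads in FA4. Its ratio of 2.66 had an interval of 0.766 to 11.6, so a difference was not detectable at this depth.

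The other vascular growth factors did not share a direction. Vegfb was at 17.3 FPKM in FA0 and 20.8 FPKM in FA4, a change of −0.25, and Vegfd, a lymphatic growth factor, was at 1.62 FPKM in FA0 and 0.905 FPKM in FA4, a change of 0.46. Vegfc had a change of 0.10 and the coreceptor Nrp2 one of 0.28. The main receptors were below 1 FPKM in both libraries. Kdr had 119 reads in FA0 and 45 reads in FA4 (ratio 2.81, interval 1.98 to 4.05), Flt4 had 136 reads in FA0 and 98 reads in FA4 (ratio 1.47, interval 1.13 to 1.93), and Flt1 had 23 reads in FA0 and 16 reads in FA4 with an interval that held 1. The coreceptor Nrp1, also below 1 FPKM, went the other way. It had 27 reads in FA0 and 59 reads in FA4 (ratio 0.486, interval 0.296 to 0.779). Of 3 endothelial markers in the table, Pecam1 was at 41.4 FPKM in FA0 and 41.2 FPKM in FA4 and Tek at 9.63 FPKM in FA0 and 4.80 FPKM in FA4, while the defining marker Cdh5 had 1 read in each library. Of the adrenomedullin system, Adm2, a related peptide, was far above Adm, at 13.5 FPKM in FA0 and 10.8 FPKM in FA4, while the receptor Calcrl was at 0.185 FPKM in FA0 and 0.152 FPKM in FA4. Of the receptor's accessory proteins, Ramp3 was expressed, at 5.40 FPKM in FA0 and 7.63 FPKM in FA4, a change of −0.43.

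Ero1l, Higd1a and Car9 act in the endoplasmic reticulum (ER), the mitochondrion and at the cell surface. Ero1l, named Ero1a in RefSeq, is the oxidase that feeds disulfide bonds to protein disulfide isomerases in the ER (ENSMUSG00000021831, chr14:45283087-45318771, minus strand). It was at 7.40 FPKM from 692 reads in FA0, against 8.99 FPKM from 894 reads in FA4. The FA0 level was 1.22-fold lower (95% counting interval 1.10 to 1.35), and the Poisson intervals of 6.85 to 7.97 FPKM in FA0 and 8.41 to 9.60 FPKM in FA4 did not overlap. Of its 5 expressed partners in ER oxidation 4 were below 0, beside 44.3% of all expressed genes. All 5 averaged at least 20 FPKM over both libraries. The share below 0 was 58.5% from 20 to 100 FPKM and 75.1% from 100 FPKM on. P4hb, the isomerase that Ero1l oxidises, was at 111 FPKM in FA0 and 137 FPKM in FA4, a change of −0.30. The isomerases Pdia4, Pdia6 and Pdia3 had changes of −0.49, −0.13 and 0.02, and Prdx4, a peroxidase of the ER, one of −0.31. The median of the 5 was −0.30, and with equal FPKM sums it was −0.22.

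Higd1a is a small protein of the inner mitochondrial membrane that associates with the respiratory chain (ENSMUSG00000038412, chr9:121848563-121858362, minus strand). It was at 15.3 FPKM from 822 reads in FA0, against 20.7 FPKM from 1181 reads in FA4. The FA0 level was 1.35-fold lower (95% counting interval 1.24 to 1.48), and the Poisson intervals of 14.2 to 16.4 FPKM in FA0 and 19.5 to 21.9 FPKM in FA4 did not overlap. The change of Higd1a was −0.41. Its relative Higd2a, a factor in the assembly of the respiratory chain, was at 68.2 FPKM in FA0 and 76.1 FPKM in FA4, a change of −0.16. An antisense transcript, Gm47112, overlaps the exons of Higd1a by 683 bases and was not analysed here.

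Car9 is the carbonic anhydrase at the cell surface that is widely used as a marker of hypoxia (ENSMUSG00000028463, chr4:43506966-43513729, plus strand). It was at 0.490 FPKM from 20 reads in FA0, against 0.646 FPKM from 28 reads in FA4. The ratio of 0.759 had an interval of 0.405 to 1.40, so the depth could not show a difference. An antisense transcript, Gm12454, shares 214 exon bases with Car9 and was listed at 0.992 FPKM in FA0 and 0.590 FPKM in FA4, so the few reads of this pair cannot be told apart if strand was not used. Other carbonic anhydrases were expressed, and 2 of the 5 were at least 2-fold higher in FA0, beside 2.99% of all expressed genes. Car8, a relative without enzyme activity, was at 4.03 FPKM in FA0 and 1.04 FPKM in FA4, and Car13, a cytosolic enzyme, was at 11.4 FPKM in FA0 and 4.90 FPKM in FA4. Car2, the most abundant, was nearly equal, at 29.2 FPKM in FA0 and 28.6 FPKM in FA4, and the changes of Car5a and Car11 were 0.12 and −0.37.

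Ddit4 (REDD1), an inhibitor of mTORC1 that also responds to DNA damage, starvation of amino acids and ER stress, was the most abundant gene of the set (ENSMUSG00000020108, chr10:59949669-59951834, minus strand). It was at 144 FPKM from 4473 reads in FA0, against 119 FPKM from 3937 reads in FA4. The ratio was 1.21 (95% counting interval 1.16 to 1.26), a change of 0.27, and the Poisson intervals of 139.8 to 148.2 FPKM in FA0 and 115.6 to 123.1 FPKM in FA4 did not overlap. In the 478 genes whose FPKM averaged at least 100 over both libraries, 75.1% had a change below 0 and the median was −0.20, so Ddit4 was among the minority of highly expressed genes on the higher side. Ddit4 made up 64.6% of the summed FPKM of the 10 genes in FA0 and 52.4% in FA4, and Bnip3 made up 6.14% in FA0 and 14.6% in FA4. The summed level, 223 FPKM in FA0 and 228 FPKM in FA4, therefore hardly differed while its make-up did.

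Of the 9 other genes listed as acting with Ddit4 on mTORC1, all expressed, 5 were above 0 and 4 below, a share below 0 like the 44.3% of all expressed genes. Ddit4l (REDD2), its relative, was at 6.62 FPKM in FA0 and 4.94 FPKM in FA4, a change of 0.36. Sesn2, a leucine sensor and stress-induced inhibitor of mTORC1, was at 98.1 FPKM in FA0 and 76.4 FPKM in FA4, also a change of 0.36. Rptor, a subunit of mTORC1 itself, had a change of 0.41, and Rheb, the GTPase that activates mTORC1, one of −0.38. Tsc1 and Tsc2, which together restrain Rheb, lay at 0.17 and −0.02, the kinase Mtor at −0.02, and the sestrins Sesn1 and Sesn3 at −0.07 and 0.24. The intervals of 5 of the 9 (Ddit4l, Tsc1, Rptor, Sesn2 and Sesn3) lay above 1, beside 34.4% of all expressed genes, and that of Rheb lay below 1. The median of the 9 was 0.17. With equal FPKM sums it was 0.24, and Rheb was then the 1 gene of the 9 below 0, so the signs of Tsc2, Mtor and Sesn1 depended on the scaling.

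Mxi1 encodes a partner of Max that opposes Myc (ENSMUSG00000025025, chr19:53310506-53375810, plus strand). It was at 5.30 FPKM from 640 reads in FA0, against 5.12 FPKM from 657 reads in FA4. The ratio of 1.03 had an interval of 0.927 to 1.16, so any difference in these libraries was small. Mxi1 shares 194 exon bases with Gm10197 on the other strand, which was not analysed here. Other genes of the network of Max and Myc differed more. Mnt, another antagonist of Myc, was at 17.0 FPKM in FA0 and 9.65 FPKM in FA4, a change of 0.75, and Mycn was at 42.0 FPKM in FA0 and 25.6 FPKM in FA4, a change of 0.69. Mlxip, Mxd3 and Myc followed at 0.57, 0.44 and 0.37. The 5 genes named here had the largest changes of the network. The median over the 10 expressed genes other than Mxi1 was 0.37. Of these 10 genes 3 were below 0, the lowest at −0.14, beside 44.3% of all expressed genes. Mxi1 was at 0.312 times the level of Mnt in FA0 and 0.530 times in FA4.

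Ndrg1, a cytoplasmic stress-response protein and a common marker of hypoxia, was low (ENSMUSG00000005125, chr15:66929318-66969640, minus strand). It was at 1.75 FPKM from 204 reads in FA0, against 2.02 FPKM from 251 reads in FA4, with a ratio of 0.863 (0.714 to 1.04). The interval held 1, as did those of the other NDRG genes, Ndrg2, Ndrg3 and Ndrg4, with changes of −0.17, 0.01 and −0.06. On the other strand, Gm17035 overlaps the exons of Ndrg1 by 419 bases and was not analysed here. Gm2895 overlaps them by 137 bases, with 0 reads in FA0 and 1 read in FA4. Ankrd37, an ankyrin repeat protein of little known function, was at 0.624 FPKM from 17 reads in FA0, against 1.14 FPKM from 33 reads in FA4 (ENSMUSG00000050914, chr8:45996902-46005707, minus strand). The ratio of 0.547 had an interval of 0.286 to 1.01, which just held 1. Ankrd37 shares 57 exon bases with Ufsp2 and 349 with Lrp2bp, both on the other strand. Ufsp2 was at 4.70 FPKM in FA0 and 5.78 FPKM in FA4, and Lrp2bp had 1 read in each library. Reads of these stretches cannot be told apart without strand.

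**Figure D2:**
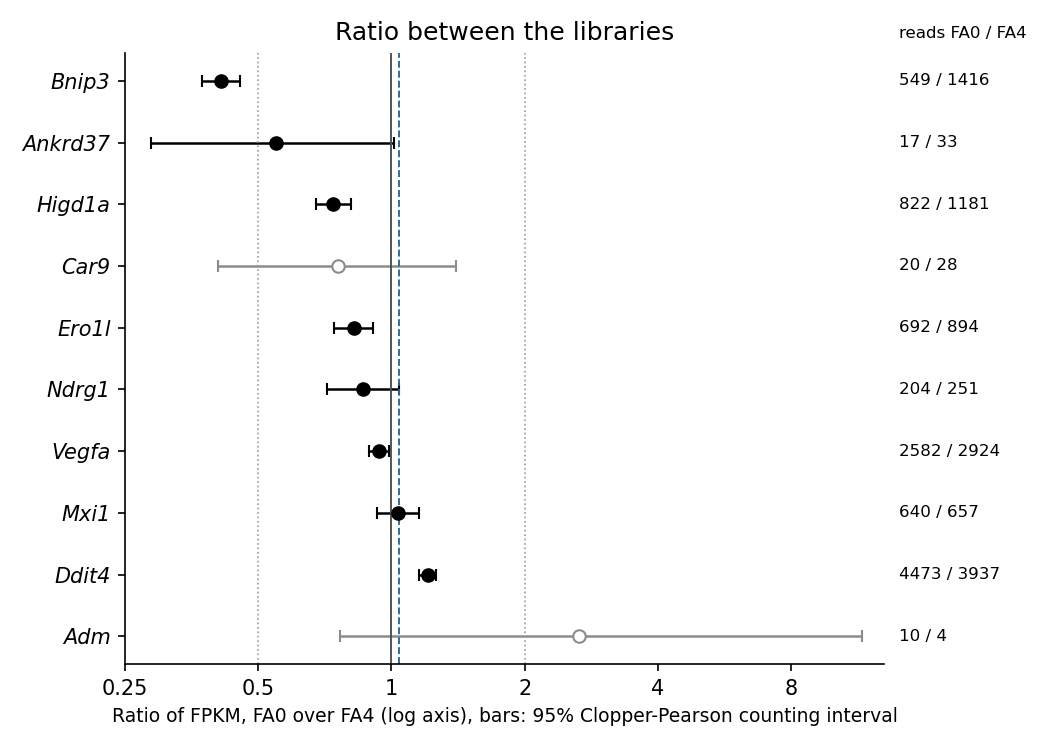
FPKM ratio of FA0 over FA4 for each of the 10 genes on a log axis, with bars for the exact 95% interval from the reads of both libraries (counting error only), a line at 1 and a dashed line at 1.04, the median ratio of all expressed genes. Open points are genes below 1 FPKM in both libraries, dotted lines mark 2-fold in either direction, and the reads stand at the right. Bnip3 at 0.412, Higd1a at 0.739, Ero1l at 0.822 and Vegfa at 0.938 have bars below 1, and Ddit4 at 1.21 has its bar above 1.

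The order of the 10 genes by level was nearly the same in both libraries. In FA0 it ran Ddit4, Vegfa, Higd1a, Bnip3, Ero1l, Mxi1, Ndrg1, Ankrd37, Car9 and Adm, and in FA4 Bnip3 and Higd1a changed places. Bnip3 and Higd1a, neighbours in both orders, had overlapping counting intervals in FA0 and not in FA4. Bnip3 was at 0.896 times the level of Higd1a in FA0 and at 1.61 times in FA4. In FA4 the interval of Bnip3 reached that of Vegfa, whereas in FA0 the intervals of these genes, 12.6 to 14.9 FPKM for Bnip3 and 32.7 to 35.4 FPKM for Vegfa, were well apart. Ankrd37 and Car9 overlapped in both libraries, as did Car9 and Adm in FA0 only.

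**Figure D3:**
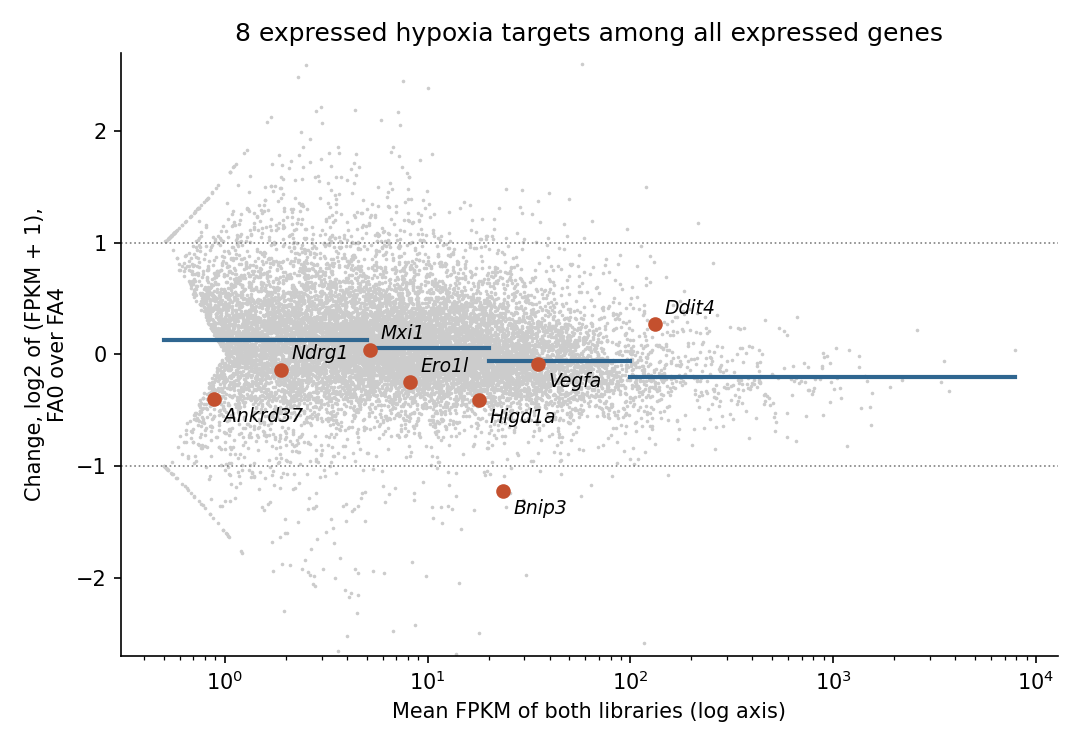
Change on the log2 scale (FA0 over FA4, 1 added to each FPKM) against the mean FPKM of both libraries on a log axis for the expressed genes, with the 8 expressed hypoxia targets named and a line for the median change in each band of level. The median is 0.12 below 5 FPKM and −0.20 from 100 FPKM on, and Bnip3 at −1.22 lies below the bulk of genes at its level. The vertical axis ends at 2.7 in either direction, and 1 gene beyond it is not drawn.

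The median change of all expressed genes depended on level, at 0.12 below a mean of 5 FPKM (6082 genes), 0.05 from 5 to 20 FPKM (5122 genes) and −0.06 from 20 to 100 FPKM. Against these values, Higd1a at −0.41 and Ero1l at −0.25 lay below the lower quartile of −0.13 in their band of 5 to 20 FPKM, and Mxi1 at 0.04 lay near its median. Vegfa at −0.09 lay inside the quartiles of its band (−0.24 and 0.15). Ddit4 at 0.27 lay above the upper quartile of its band, which was just below 0.

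Other HIF targets were set beside the 10 genes. Among 32 other targets outside glycolysis 24 were expressed, with a median of −0.23. Of these 15 were below 0, beside 44.3% of all expressed genes, and 1 was at least 2-fold lower, beside 1.32%. The 1 gene was Ndufa4l2, a mitochondrial protein that replaces a subunit of the respiratory chain, at 6.91 FPKM in FA0 and 22.4 FPKM in FA4, a change of −1.57. P4ha1 and P4ha2, which hydroxylate collagen, had changes of −0.97 and −0.74, Loxl2, which crosslinks it, one of −0.82, and Fam162a, a mitochondrial protein, one of −0.63. Among 22 expressed entries for glycolytic targets, with Aldoa under 2 gene IDs, 15 were below 0, beside the same 44.3%. Slc2a3, a glucose transporter, and Slc16a3, a lactate exporter, were at least 2-fold lower, at −1.08 and −1.05, beside the same 1.32%. The hexokinase Hk1 went the other way, with 1918 reads in FA0 and 962 reads in FA4, a ratio of 2.12 (1.96 to 2.29) and a change of 0.97. Eno1 and Slc2a1 had changes of −0.87 and −0.78. With equal FPKM sums 1 glycolytic entry was at least 2-fold lower and 1 at least 2-fold higher. Over expressed genes, the median was −0.19 for the 8 hypoxia targets described here, against −0.37 for the glycolytic entries and −0.23 for the other targets outside glycolysis. With no limit on level it was −0.14 for the 10 genes, against −0.37 for the glycolytic entries and −0.15 for the other targets. The differences between these lists have no test. The lists were not matched for level, on which the median change of all expressed genes depended.

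The genes that sense oxygen and carry the response did not change as a group in 1 direction. Hif1a was at 25.6 FPKM in FA0 and 28.7 FPKM in FA4, a change of −0.16, and its partner Arnt was at 19.3 FPKM in FA0 and 20.3 FPKM in FA4, a change of −0.07. The related subunits Hif3a and Arnt2 lay at 0.09 and 0.16, with intervals that held 1. Epas1 (HIF-2 alpha) was at 14.9 FPKM in FA0 and 6.63 FPKM in FA4, a change of 1.06. Of the prolyl hydroxylases, Egln1 and Egln3, both of them HIF targets themselves, had changes of −0.52 and 0.62, and Egln2 one of 0.17. Vhl was at −0.34, and Hif1an, which hydroxylates an asparagine of the alpha subunits, was at 0.10. These are RNA levels, and the HIF proteins, which oxygen controls through their stability, were not measured in these libraries.

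**Figure D4:**
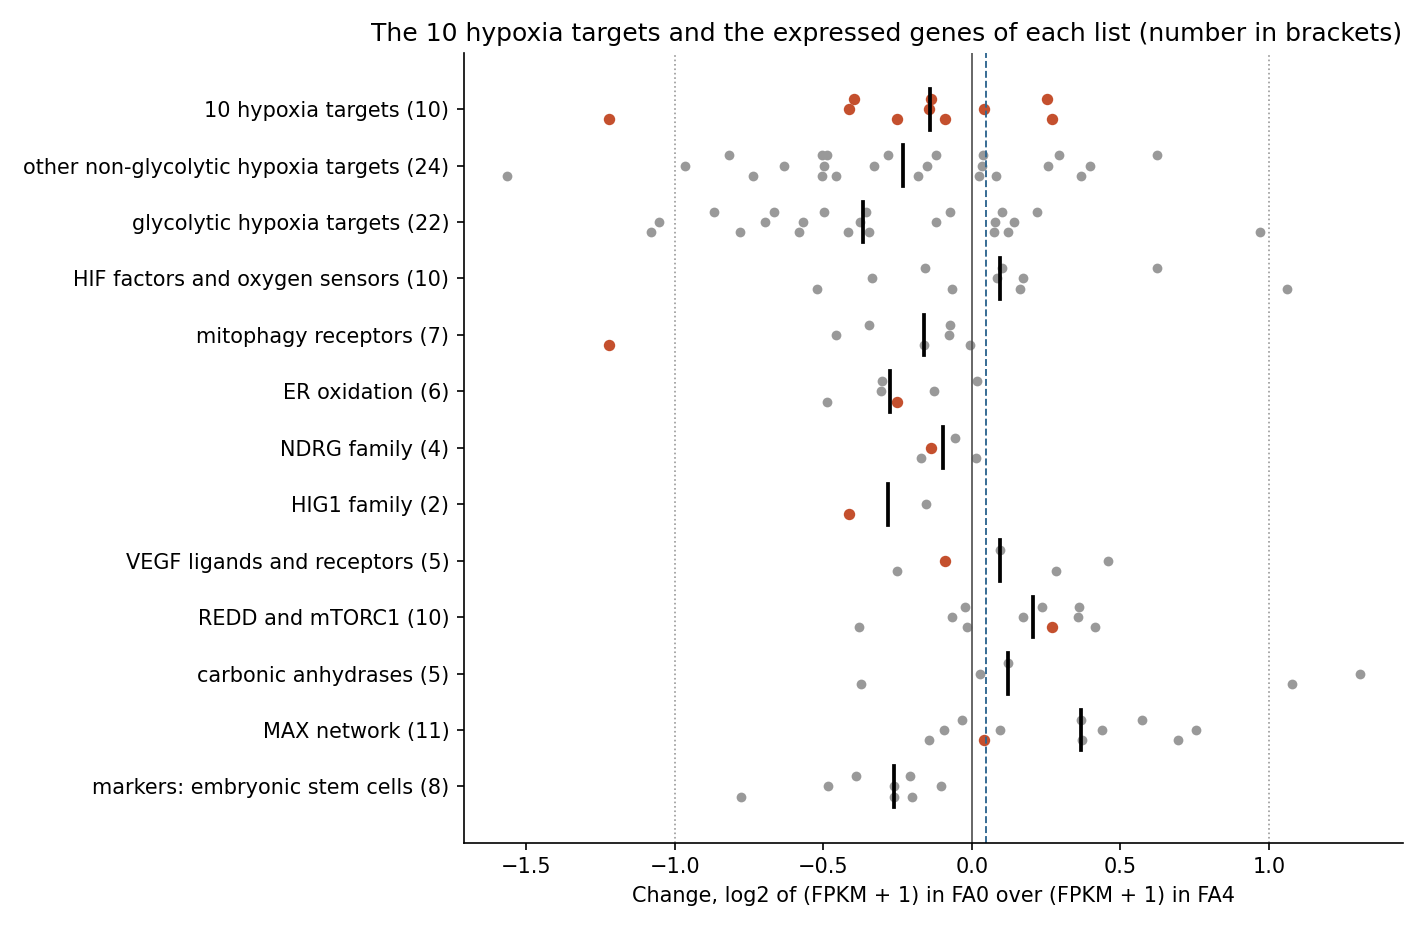
Change on the log2 scale (FA0 over FA4, 1 added to each FPKM) of the 10 hypoxia targets (red wherever they occur) and of the expressed genes of each comparison list (grey), with a black bar for the median of each list, dotted lines at −1 and 1 and a dashed line at 0.05, the median of all expressed genes. The 10 genes, of which Adm and Car9 were below the expression limit, have a median of −0.14 and the expressed glycolytic targets one of −0.37, and lists that share a red point include that gene in their median, and Bnip3 is the only red point beyond −1.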

How the data were processed

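Total RNA of Sv129 mESCs had been made into 1 library per condition (FA0, FA4) with a NEBNext Ultra kit. Whether reads were counted by strand was not given in the sources used here. Per the submitters' processing notes the tools were HISAT2 2.1.0, StringTie 1.3.3b and DESeq 1.28.0, with the mm10 build. The authors deposited FPKM per gene, normalised to exon length and library size, and how reads with several matches were counted is likewise not stated. No columns of the authors' own comparisons were used.

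Members were matched by symbol. Reads were recovered as FPKM times merged exon length (GENCODE M21) times a scaling total fitted per library (17704833 in FA0, 18807180 in FA4). Of the values up to 20 reads, 98.1% in FA0 and 97.9% in FA4 came within 0.05 of a whole number, and no member's reads were more than 0.0785 from one. For 72 genes no length was found. Changes used a pseudocount of 1, and a gene was tested at a minimum of 1 FPKM in either library. Levels carry exact Poisson and ratios exact Clopper-Pearson intervals at 95%. The fitted totals, recovered reads and large changes were tested on simulated Poisson reads. The intervals, rescalings and motif search were not tested in this way. All 10 members were named, from other lists at most the 5 expressed genes with the largest change, and families of 10 or fewer expressed genes in full. Members and lists were chosen with earlier results of these data known. Promoters came from RefSeq (GRCm38.p6), and both strands were searched. Pseudocounts, minimums and rescalings were varied, and a rescaling to equal FPKM sums was added after the data were seen. Python 3.11.15, pandas 2.3.3, numpy 2.4.6, scipy 1.17.1 and matplotlib 3.10.9 were used.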

Additional observations from a re-analysis of the deposited data

How the results depend on the processing

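The alternatives were another pseudocount, another minimum, FA0 rescaled by the median ratio or to the FPKM sum of FA4, and TPM. A pseudocount or a minimum cannot change the sign of a member. The rescalings and TPM only raise FA0, so only members below 0 could change sign under them. None did, and Vegfa came nearest, at −0.01 with equal FPKM sums and with TPM. Bnip3 was the 1 member at least 2-fold lower under each alternative. With no pseudocount 1 member, Adm with 10 reads in FA0 and 4 in FA4, was at least 2-fold higher. With a minimum of 5 FPKM 4 members were below 0, since fewer were counted. Rescaling FA0 to the FPKM sum of FA4, chosen after seeing the data, raised FA0 by 0.08 on the log2 scale and the median of the 14345 expressed genes to 0.12, left 3 members with an interval below 1 in place of 4 (Vegfa's then held 1), and gave a median of −0.29 for the glycolytic targets, with 518 of all genes past 2-fold on the higher side and 174 on the lower. TPM has this shift and also a smaller effective pseudocount and minimum, so that 18809 genes were counted, and it gave −0.29 for the glycolytic targets. Ankrd37, at −0.40, had a lower change than Higd1a with a pseudocount of 0.1 (−0.78 and −0.43), with none (−0.87 and −0.44) and with TPM (−0.56 and −0.35). The background counts moved more. All genes at least 2-fold higher were 951 with a pseudocount of 0.1, 978 with none, 195 with a minimum of 5 FPKM and 1529 with TPM, against 429 as reported, and those at least 2-fold lower were 409, 406, 80 and 599, against 190. No paired analysis was possible because each condition has 1 library, and for the same reason no replicate could be left out. Depth limits Adm, Car9 and Ankrd37, with 4 to 33 reads per library.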

Other observations

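Some genes next to the 10 were read as values, chosen after the data were seen. Tpm2, which encodes a tropomyosin and starts 981 bases beyond Car9, was at 2.19 FPKM in FA0 and 3.14 FPKM in FA4. Ccdc13, which lies 9101 bases from Higd1a, was at 2.76 FPKM in FA0 and 1.63 FPKM in FA4, a change of 0.51 beside −0.41 for Higd1a. Sbf2, which lies 12738 bases from Adm, was at 3.30 FPKM in FA0 and 5.28 FPKM in FA4. Of the carbonic anhydrases below the expression limit, Car4 had 1 read in FA0 and 34 reads in FA4.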
